A study of Drosophila melanogaster with 10 samples.

Results

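T4 and T5 neurons are the columnar cells of the fly optic lobe in which visual motion first becomes a direction-selective signal. T4 belongs to the ON pathway, which signals brightness increments, and takes its input in the medulla. T5 is its counterpart in the OFF pathway for brightness decrements, with input in the lobula. Both send their axons to the lobula plate. Each type has subtypes a, b, c and d, named by the layer of the lobula plate in which the axon ends. The question addressed here is in which genes T4 differed from T5 late in pupal life, in libraries of 60 and 72 h APF (hours after puparium formation), when dendrites and synapses of these neurons are still maturing. The T4 cells compared were 7251 barcodes and the T5 cells 2557 barcodes, together 9808 of the 22823 barcodes of the 4 libraries of these stages, in a series of 72871 barcodes.

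A barcode was kept if it held at least 1000 unique molecular identifiers (UMIs, counted transcripts), at most 10% of them on mitochondrial and at most 10% on heat-shock genes, and at least 3 UMIs of *SoxN*, *Sox102F* and *Lim1* together, transcription factors of T4/T5 neurons. It was taken as T4 if *TfAP-2*, *dpr2* and *dpr3* together had at least 2 UMIs and *CG34355* at most 1, and as T5 if that sum was 0 and *CG34355* had at least 1 UMI. *TfAP-2* is a transcription factor, *dpr2* and *dpr3* are cell-surface proteins of the immunoglobulin superfamily, and *CG34355* is named by its annotation number only. Both types came from the same libraries. All cells carried the split-Gal4 line SS00324, active in T4 and T5 alike, recombined with UAS-mCD8::GFP. GFP-positive cells without propidium iodide, a stain of dead cells, were sorted from pooled pupal brains at 24, 36, 48, 60 or 72 h APF, with 2 libraries per stage. The driver does not separate the types or subtypes, so type was read from the counts alone.

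In 60 h APF replicates 1 and 2 and 72 h APF replicates 1 and 2, the order in which values per library are given throughout, the gate took 1360, 1154, 1398 and 3339 T4 cells and 622, 553, 328 and 1054 T5 cells. These were 41.0, 35.8, 32.8 and 39.7% (T4) and 18.8, 17.1, 7.69 and 12.5% (T5) of the barcodes that passed the identity filter. A further 1334, 1518, 2541 and 4018 barcodes fell in neither type. Close to the limits, 191, 225, 544 and 776 T4 cells had exactly 2 UMIs of the 3 T4 genes, while 184, 267, 612 and 683 barcodes with 1 UMI stayed outside. Of the T5 cells, 300, 294, 265 and 728 had exactly 1 UMI of *CG34355*, and 1132, 1242, 1925 and 3302 barcodes with 0 UMIs of all 4 genes stayed outside. Between 4 and 33 barcodes per library were left out because they held T4 genes together with at least 2 UMIs of *CG34355*. The T4 and T5 sums are therefore samples of both types, taken by transcripts whose detection depends on depth. Libraries shared 4 to 15 barcode sequences per pair, of which 1 to 4 were gated cells.

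The 4 genes of the gate are given as a description, since they chose the cells. *TfAP-2* had 371, 376, 238 and 294 CPM (counts per 1000000 UMIs of the sum) in T4, *dpr2* had 302, 306, 354 and 370.3 CPM, and *dpr3* had 98.5, 109, 418 and 217 CPM, all at 0 in T5 by the rule. *CG34355* had 1.08, 1.96, 4.56 and 5.82 CPM in T4 and 241, 301, 351 and 296 CPM in T5. Each gene was also read in cells gated without it. With T5 gated only by the absence of the 3 T4 genes, *CG34355* had a UMI in 2.10, 1.89, 1.78 and 3.71% of T4 cells and in 35.5, 30.8, 14.6 and 24.2% of T5 cells. *TfAP-2*, left out of the gate in turn, had a UMI in 88.6, 82.7, 42.9 and 68.0% of T4 cells and in 2.96, 2.64, 2.09 and 1.77% of T5 cells. Treated in the same way, *dpr2* had a UMI in 72.3, 66.7, 56.3 and 71.7% of T4 cells and *dpr3* in 39.4, 34.0, 57.6 and 53.9%, against at most 2.41% (*dpr2*) and 3.24% (*dpr3*) of T5 cells in any library. Each gating gene was thus also separated in cells chosen by the others. For *TfAP-2*, *dpr2* and *CG34355*, but not *dpr3*, the share in the type named by the gene was lowest in 72 h APF replicate 1, the shallowest library.

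Median depth was 7337, 5525.5, 3072.5 and 4208 UMIs per T4 cell and 7766, 5732, 3497 and 4488 UMIs per T5 cell, and the 8 sums held 4600795 to 15811877 UMIs (T4) and 1153936 to 5107859 UMIs (T5). The neuronal gene *elav* was found at 489 to 765 CPM in T4 and 591 to 827 CPM in T5. Of 5 glial markers, *repo* reached at most 0.652 CPM in T4 and 0.315 CPM in T5, *Gs2*, *Eaat1* and *alrm* at most 6.30 CPM in T4 and 6.07 CPM in T5, and *nrv2* was at 171 to 499 CPM in T4 and 187 to 393 CPM in T5. The 5 summed to 186 to 504 CPM in T4 and 201 to 394 CPM in T5, with no marker at 0 over all libraries. The 4 haemocyte markers summed to at most 0.098 CPM in T4 and 0 in T5. *VGlut*, *Gad1* and *VGAT*, markers of glutamatergic and GABAergic neurons, summed to 32.1 to 73.2 CPM in T4 and 26.1 to 89.7 CPM in T5. Of 8 photoreceptor genes, *Arr1* and *Arr2* were at 0 in both types and *norpA* made up nearly the whole sum of 351 to 850 CPM in T4 and 296 to 629 CPM in T5. Subtypes were not taken evenly. Cells with a UMI of *dac* and none of *bi* (a,b-like, since *dac* marks subtypes a and b and *bi*, also called *omb*, subtypes c and d) made up 47.8, 46.0, 27.3 and 22.5% of T4 and 31.0, 28.2, 29.6 and 21.0% of T5. Cells with the reverse pattern (c,d-like) made up 42.0, 40.6, 30.7 and 35.9% of T4 and 52.7, 44.7, 40.9 and 44.2% of T5. The a,b-like share was thus higher in T4 at 60 h and close between the types at 72 h APF. The c,d-like share was higher in T5 in each library. The comparisons of type, of type by stage and of type by period below were therefore also fitted with the pairs kept apart. In these fits each pair of each library was its own block, with 1 type difference common to both pairs. A gene whose type difference is unlike in the pairs can lose its call there, since that spread counts as error.

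UMIs were summed over the cells of each type and library and compared within libraries for the 6765 genes that passed the filter on low counts, leaving out the gate genes. A gene was called if edgeR's quasi-likelihood test gave a Benjamini-Hochberg adjusted p under 0.05 and the fitted difference was at least 2-fold. Differences are written below as the log2 of T4 over T5 with a standard error (SE). The SE is the absolute difference divided by the square root of the test's F value. For genes with few UMIs in T5, such as *Grd* (32 in total) and *hec* (11), it is smaller than counting error and overstates the precision. The p-value comes from the same F value and can likewise be too small for such genes. By this rule 256 genes (3.78% of those tested) were higher in T4 and 96 (1.42%) were higher in T5. With the p-value alone, 767 genes (11.3%) were higher in T4 and 560 (8.28%) in T5. The median log2 difference of all tested genes was -0.02. Differences of at least 4-fold were found for 129 genes higher in T4 and 22 higher in T5. A log2 difference of 4 or more was reached by 48 genes towards T4 and by none towards T5. All 4 libraries had the called direction for 239 of the 256 and 83 of the 96 genes. Most called genes were low, with a median of 17.0 CPM in T4 for genes higher in T4 and 16.2 CPM in T5 for genes higher in T5, and 79 and 28 of them reached 50 CPM in the higher type. The long non-coding RNA *CR44493*, with 183 UMIs in T4 and 0 in T5 (at least 23.4-fold higher in T4, against 3 UMIs over the group), was the only called gene that overlaps a gate gene on its strand, *dpr2*, and is not independent of the gate. With the subtype pairs fitted apart, 235 genes were higher in T4 and 92 in T5, and 209 and 73 of them were among the genes called from the whole types. That fit counted both pairs of a library as separate differences, although only 4 libraries stand behind them. Its p-values can therefore be too small. Of the 256 and 96 genes, 160 and 49 were also called after thinning each cell to 1000 UMIs, 178 and 59 with a stricter gate, and 196 and 53 without the library as block.

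**Figure D1:**
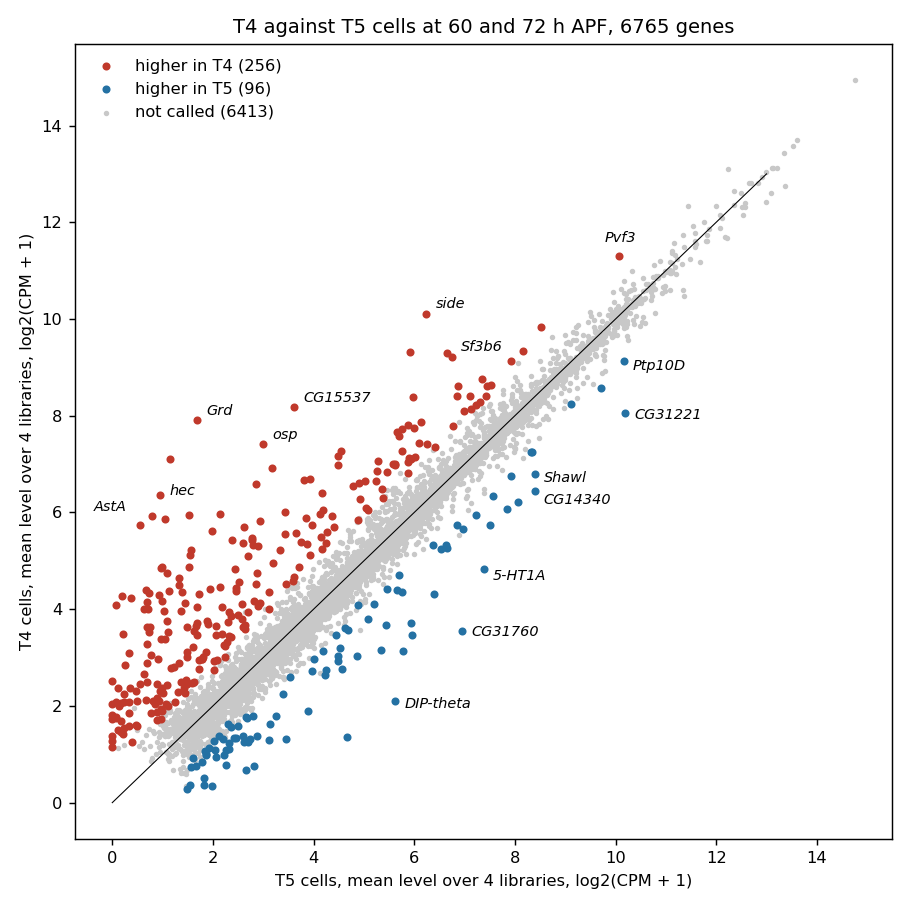
Mean log2(CPM + 1) of each tested gene over the 4 libraries in T4 (y axis) against T5 (x axis). Red points are the 256 genes higher in T4, blue points the 96 genes higher in T5 and grey points the other tested genes. Several red points lie near 0 on the T5 axis while well above 0 on the T4 axis, whereas blue points stay closer to the diagonal.

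The largest difference among genes of at least 50 CPM towards T4 was that of *Grd* (chromosome 3L, 17823333 to 17839767), which encodes a subunit of the family of GABA- and glycine-gated chloride channels. *Grd* had 114, 88.0, 323 and 433 CPM in T4 and 0.829, 1.57, 2.60 and 3.92 CPM in T5, and its log2 difference was 6.74 (SE 0.12, adjusted p = 8.97e-08 by edgeR's quasi-likelihood test). Every T4 value lay far above every T5 value. *CG32191*, which lies next to *Grd* on 3L (17806451 to 17809146, other strand), had 11.1, 11.8, 95.6 and 90.4 CPM in T4 and 0, 0.315, 0 and 1.57 CPM in T5 (log2 difference 6.19, SE 0.25, adjusted p = 2.97e-06). Both had their higher T4 values at 72 h APF. *hec* (X, 12950436 to 12957462) encodes a receptor of the class B, or secretin-like, peptide hormone family. It had 77.0, 71.3, 105 and 70.1 CPM in T4 and 0.622, 0.630, 1.73 and 0.783 CPM in T5 (6.60, SE 0.13, adjusted p = 1.00e-07), nearly level over the T4 libraries. *ana*, a secreted glycoprotein known from glia that hold neuroblasts quiescent, had 85.3, 109, 249 and 102 CPM in T4 and 1.66, 1.26, 1.73 and 0.196 CPM in T5 (6.70, SE 0.22, adjusted p = 1.12e-06). The groups did not overlap for *hec* or *ana*.

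*AstA* (3R, 24760530 to 24765071) encodes the precursor of the allatostatin A peptides. It had 111, 92.4, 19.1 and 15.9 CPM in T4 and 0.622, 0.630, 0.867 and 0.783 CPM in T5, a log2 difference of 6.50 (SE 0.28, adjusted p = 3.77e-06 by edgeR's quasi-likelihood test), with the 60 h T4 sums above the 72 h ones. *Dop1R2* (3R, 29630304 to 29659984), a dopamine receptor, had 62.5, 61.6, 43.7 and 60.8 CPM in T4 and 0, 1.26, 0.867 and 2.15 CPM in T5 (5.74, SE 0.29, adjusted p = 8.07e-06). *Hey*, a transcriptional repressor of the Notch pathway, had 9.21, 7.70, 108 and 118 CPM in T4 and 0.207, 0.630, 3.47 and 3.13 CPM in T5 (5.11, SE 0.16, adjusted p = 9.08e-07). T4 was above T5 in each library for all of these genes, but *Hey* at 60 h APF in T4 was only a few CPM above *Hey* at 72 h APF in T5. The other genes of this group were *osp* (169 ± 52.3 CPM in T4 and 7.02 ± 6.32 CPM in T5, SD, n = 4 libraries), *CG15537* (289 ± 142 and 11.3 ± 12.9 CPM in T4 and T5), *CG6006* (61.4 ± 66.2 and 3.40 ± 1.43 CPM), *CG9331* (95.9 ± 32.3 and 6.25 ± 3.40 CPM) and *CG12643* (119.5 ± 47.9 and 7.99 ± 6.31 CPM), with log2 differences of 3.85 to 4.92. *CG6006* in T4 fell into separate levels, 134 and 100.4 CPM at 60 h and 4.999 and 5.63 CPM at 72 h APF.

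Towards T5 the differences were smaller. *CG31760* (2L, 12142780 to 12170508) had 15.3, 13.1, 7.39 and 7.02 CPM in T4 and 205, 202, 49.4 and 34.5 CPM in T5, and its log2 difference of -3.32 (SE 0.25, adjusted p = 5.76e-05 by edgeR's quasi-likelihood test) was the largest towards T5 among genes of at least 50 CPM. It overlaps *CG31861* and *ZnT33D* on the same strand in the annotation, so reads of these genes could be shared. *5-HT1A* (2R, 19067155 to 19121958), a serotonin receptor, had 38.3, 43.8, 11.7 and 16.2 CPM in T4 and 262, 275, 45.1 and 78.7 CPM in T5 (-2.50, SE 0.11, adjusted p = 5.08e-06). *CG31221* (3R, 19412689 to 19460311) was the most abundant of this group, with 121, 139, 497 and 301 CPM in T4 and 653, 764, 2187 and 1088 CPM in T5 (-2.20, SE 0.10, adjusted p = 5.08e-06). In *CG31760* and *CG31221* every T5 value exceeded every T4 value. In *5-HT1A* T5 was higher within each library and the T5 value of 72 h APF replicate 1 was only just above the T4 value of 60 h APF replicate 2.

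*Shawl* (2L, 9370309 to 9415156), a voltage-gated potassium channel, had 149, 135, 60.2 and 94.2 CPM in T4 and 472, 408, 203 and 259 CPM in T5, and its difference of -1.59 (SE 0.06, adjusted p = 2.00e-06 by edgeR's quasi-likelihood test) had the smallest SE of these genes. *Shawl* was higher in T5 in each library without overlap. *CG14340* (2L, 1112941 to 1114138), named by the rule for named genes, had 117, 99.2, 46.1 and 80.5 CPM in T4 and 512, 464, 139.5 and 222 CPM in T5 (-1.86, SE 0.13, adjusted p = 4.05e-05). *sick*, a relative of the vertebrate neuron navigators, had 101, 105, 31.7 and 25.8 CPM in T4 and 309, 316, 172 and 115 CPM in T5 (-1.87, SE 0.13, adjusted p = 4.51e-05). It overlaps 2 annotated long non-coding RNAs and 3 snRNA genes on its strand. The remaining genes of this group were *CG9008* (7.84 ± 6.83 CPM in T4 and 54.0 ± 18.2 CPM in T5), the long non-coding RNA *CR43148* (10.1 ± 4.85 and 61.2 ± 13.4 CPM), *CG6959* (12.2 ± 10.99 and 60.0 ± 46.3 CPM), *CG32204* (72.9 ± 20.4 and 267 ± 138 CPM) and *CG9628* (52.5 ± 23.8 and 180.3 ± 92.3 CPM). *jdp*, a DnaJ-domain protein, was the least even of them, with 6.76, 4.38, 30.4 and 34.3 CPM in T4 and 8.29, 13.9, 52.9 and 256 CPM in T5 (-1.93, SE 0.40, adjusted p = 0.0113), and without 72 h APF replicate 2 its difference was -0.81 and no longer called.

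**Figure D2:**
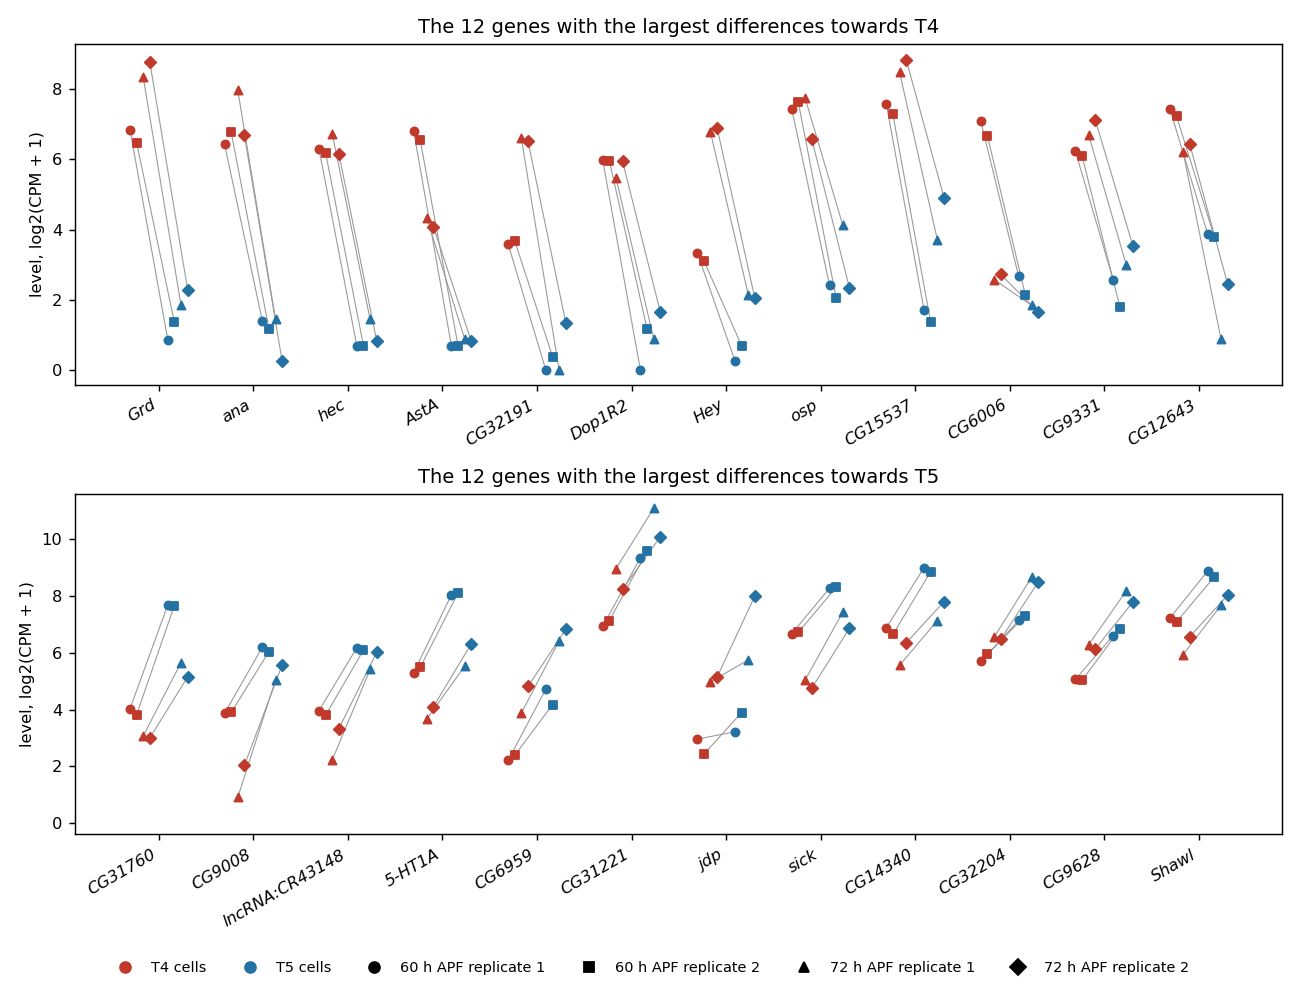
Level of the 12 genes with the largest difference towards T4 and the 12 towards T5 among called genes of at least 50 CPM, as log2(CPM + 1) in each library. Red points are T4 (left) and blue points T5 (right), and a line joins the types of 1 library. The lines slope the same way in all 4 libraries for each of these genes, as the rule for choosing them required.

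The level of a gene over cells was read as the share of cells with at least 1 UMI, after thinning each cell to 1000 UMIs and as counted. *Grd* had a UMI in 17.8 ± 11.4% of T4 cells and 0.284 ± 0.236% of T5 cells after thinning (SD over the 4 libraries), and in 45.4% and 0.900% of T4 and T5 cells as counted. *side* was found in 50.2 ± 36.3% of thinned T4 cells and 6.68 ± 4.77% of thinned T5 cells, and *CG31221* in 16.9 ± 8.60% of T4 and 58.4 ± 17.4% of T5 cells. *TfAP-2* in T5 cells gated without it, a gene that T5 should lack, was found in 1.77 to 2.96% of cells as counted. This served as a rough guide to background in unthinned shares. Background varies by gene and library, and the shares were 0.955 to 2.41% for *dpr2* and 0.360 to 3.24% for *dpr3* in T5 cells gated without them. The counted shares in T5 of *Grd*, *hec* (0.458%), *AstA* (0.318%) and *Dop1R2* (0.330%) were below the range of *TfAP-2* and are not read as expression. Of the 12 top genes higher in T5, the T4 share was above the range of *TfAP-2* for all but *jdp* (2.56%). *5-HT1A*, for example, had a UMI in 8.53% of T4 and 37.9% of T5 cells as counted. Among the list genes higher in T5, *DIP-theta* (1.02% of T4 cells) was below the range and *dpr13* (2.28%) and *ort* (2.86%) within it. These shares cannot decide whether T4 expressed them, since the range comes from 1 other gene. *dpr13* had 21.5 CPM in T4 of 72 h APF replicate 1. Over the 12 top genes in each direction the median thinned share was 7.86% of T4 and 0.239% of T5 cells for genes higher in T4, and 3.41% of T4 and 13.7% of T5 cells for genes higher in T5.

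Receptors for transmitters were compared first, since T4 and T5 receive different inputs. Most of their genes were not called. The counts of this list and the following ones stand beside 3.78% of all tested genes higher in T4 and 1.42% higher in T5. Of 9 nicotinic acetylcholine receptor subunits tested, 1 was higher in T4 and none in T5, of 10 GABA-, glutamate- and histamine-gated or GABA-B receptor genes 2 were higher in T4 and 1 in T5, and of 9 excitatory and metabotropic glutamate receptor genes 1 was higher in T5. The median log2 differences of these lists were 0.06, 0.03 and -0.01, beside -0.02 for all genes. *Rdl*, the main GABA-A receptor subunit, averaged 4548 CPM in T4 and 4332 CPM in T5. *nAChRalpha6*, the subunit targeted by spinosad, had 60.0, 72.6, 183 and 83.0 CPM in T4 and 18.2, 19.2, 26.9 and 61.5 CPM in T5 (log2 difference 1.48, SE 0.29, adjusted p = 0.0094 by edgeR's quasi-likelihood test), and the highest T5 value lay above the lowest T4 value. With a stricter gate its adjusted p was 0.475. *nAChRalpha5*, chosen after its values were seen as the most abundant subunit, was at 10060.0, 9919.8, 869 and 969 CPM in T4 and 15212, 15307, 1063 and 1146 CPM in T5, a difference of -0.42 that did not reach 2-fold.

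Among inhibitory receptors *GABA-B-R3*, a metabotropic GABA receptor, had 28.8, 30.8, 74.6 and 58.2 CPM in T4 and 1.24, 2.20, 4.33 and 3.92 CPM in T5 (log2 difference 4.04, SE 0.13, adjusted p = 9.08e-07 by edgeR's quasi-likelihood test), with no overlap. *ort*, a histamine-gated chloride channel, was nearly gone from both types at 72 h APF, with 10.1, 9.21, 1.09 and 0.506 CPM in T4 and 36.3, 32.8, 0.867 and 1.17 CPM in T5 (-1.73, SE 0.17, adjusted p = 0.00026), so its call rests on the 60 h libraries. *Neto*, an auxiliary subunit of ionotropic glutamate receptors, had 12.3, 13.1, 11.95 and 9.42 CPM in T4 and 24.7, 22.4, 81.5 and 41.7 CPM in T5 (-1.65, SE 0.29, adjusted p = 0.00516). T5 exceeded T4 for *Neto* in all libraries.

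Of 17 tested receptors for amines and muscarinic receptors, 4 (23.5%) were higher in T4 and 3 (17.6%) in T5, against 3.78 and 1.42% of all genes, with a median of 0.09. Beside *Dop1R2*, the dopamine receptor *Dop2R* had 26.7, 29.4, 35.4 and 64.7 CPM in T4 and 3.11, 1.26, 0.867 and 18.6 CPM in T5 (2.53, SE 0.31, adjusted p = 0.000771 by edgeR's quasi-likelihood test). The tyramine receptor *TyrR* had 6.47, 11.9, 26.7 and 3.16 CPM in T4 and 3.52, 0.945, 3.47 and 0.979 CPM in T5 (2.02, SE 0.38, adjusted p = 0.00697). *TyrR* overlapped between the types and *Dop2R* did not, and *TyrR* was not called after thinning (adjusted p = 0.0768). The other called members were chosen for mention after their values were seen. *Oct-TyrR*, a receptor for tyramine and octopamine, had 85.4, 86.6, 38.3 and 52.1 CPM in T4 and 25.1, 19.8, 9.53 and 14.1 CPM in T5 (1.94, SE 0.08). *mAChR-B*, a muscarinic acetylcholine receptor, had 6.47, 9.21, 79.8 and 54.4 CPM in T4 and 23.8, 21.4, 201 and 153 CPM in T5 (-1.45, SE 0.09), and *5-HT2A*, a serotonin receptor, averaged 5.83 CPM in T4 and 22.7 CPM in T5. Another serotonin receptor, *5-HT7*, at 31.0 CPM in T4 and 18.5 CPM in T5, passed the p-value towards T4 (0.79, adjusted p = 0.00618) but not the 2-fold limit.

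T4 and T5 release acetylcholine, and the genes that make and load it were close. *ChAT*, choline acetyltransferase, averaged 158 CPM in both types and *VAChT*, the vesicular transporter, 728 CPM in T4 and 700.1 CPM in T5, and the test called neither. Of 11 genes of transmitter synthesis and transport, 2 were higher in T4. *ple*, the tyrosine hydroxylase of dopamine synthesis, had 61.7, 73.2, 16.3 and 16.1 CPM in T4 and 3.94, 8.82, 1.73 and 2.35 CPM in T5 (3.37, SE 0.17, adjusted p = 8.07e-06 by edgeR's quasi-likelihood test). *Tbh*, which makes octopamine from tyramine, had 22.5, 22.8, 28.7 and 16.2 CPM in T4 and 3.94, 2.20, 7.80 and 4.89 CPM in T5 (2.32, SE 0.22, adjusted p = 0.000221). Neither overlapped between the types. At 48 h APF *ple* had already averaged 531 CPM in T4 and 45.6 CPM in T5. None of 16 listed potassium channel genes was called, with a median of 0.13 (7 passed the p-value alone towards T4 and 1 towards T5), and *Shawl* was not in that list. Of 23 sodium, calcium and other cation channel genes only *CG42817* was called, at 221 ± 73.9 CPM in T4 and 108 ± 25.8 CPM in T5 (1.02, SE 0.07), just past 2-fold.

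Peptides and their receptors were next. Of 13 neuropeptide and processing genes tested, *AstA*, *CCHa2* and *AstCC* were higher in T4 and none in T5 (median -0.02). *CCHa2*, the precursor of the peptide CCHamide-2, had 33.1, 30.8, 0.217 and 0.126 CPM in T4 and 0.207, 0, 0 and 0 CPM in T5, which is 545 UMIs in T4 against 1 UMI in T5 and a ratio of the CPM of 208.7 with a counting interval of 37.3 to 8257 (95%, counting error only). The *CCHa2* difference was thus a matter of 60 h APF, and DESeq2 gave an adjusted p of 0.0826. *AstCC*, a peptide of the allatostatin C family, was level over the libraries, with 21.7, 21.3, 17.2 and 21.9 CPM in T4 and 2.70, 4.41, 1.73 and 2.55 CPM in T5 (2.87, SE 0.18, adjusted p = 2.22e-05 by edgeR's quasi-likelihood test).

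Of 21 peptide receptor genes tested, 8 (38.1%) were higher in T4 and 3 (14.3%) in T5, against 3.78 and 1.42% of all genes (median 0.18). After *hec*, those with the largest differences towards T4 among members of at least 10 CPM were *CCKLR-17D3*, a receptor of the cholecystokinin-like drosulfakinins, at 24.2, 21.1, 8.91 and 12.8 CPM in T4 and 0.415, 0.315, 0 and 1.76 CPM in T5 (4.41, SE 0.40, adjusted p = 0.000165 by edgeR's quasi-likelihood test), and *AstC-R2*, an allatostatin C receptor, at 118, 155, 113 and 25.2 CPM in T4 and 18.7, 28.3, 4.33 and 5.68 CPM in T5 (2.68, SE 0.19, adjusted p = 4.76e-05). *Dh44-R2*, a receptor of diuretic hormone 44, had 28.7, 30.8, 29.1 and 21.0 CPM in T4 and 5.39, 6.93, 3.47 and 1.76 CPM in T5 (2.66, SE 0.20, adjusted p = 5.86e-05). Of these only *AstC-R2* overlapped, through the low T4 value of 72 h APF replicate 2. Chosen after their values were seen, *NPFR*, the neuropeptide F receptor, had 268, 243, 119 and 132 CPM in T4 and 61.6, 60.2, 29.5 and 52.3 CPM in T5 (1.87, SE 0.13), and *Pdfr*, the receptor of pigment-dispersing factor, had 22.7, 29.3, 305 and 31.2 CPM in T4 and 3.94, 5.35, 91.9 and 14.5 CPM in T5 (1.77, SE 0.19). *Pdfr* stood out in 72 h APF replicate 1 in both types. *CCKLR-17D1* (3.10, at 6.80 CPM in T4 and 0.874 CPM in T5) and *ETHR* completed the genes higher in T4, and *CCHa1-R*, *TkR86C* and *rk* were higher in T5 at no more than 13.8 CPM.

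Dpr proteins and their binding partners, the DIPs, are immunoglobulin-domain proteins known for pairing in synaptic partners of the optic lobe. Apart from the gate genes *dpr2* and *dpr3*, 19 *dpr* genes were tested, of which 5 (26.3%) were higher in T4 and 1 (5.26%) in T5, against 3.78 and 1.42% of all genes (median 0.24). *dpr16* had 344, 347, 75.2 and 93.8 CPM in T4 and 84.4, 95.1, 36.4 and 36.6 CPM in T5 (1.71, SE 0.14, adjusted p = 8.12e-05 by edgeR's quasi-likelihood test), higher in T4 within each library while the 72 h T4 sums overlapped the 60 h T5 sums. It overlaps *CG12590* and a long non-coding RNA on its strand. *dpr5* had 24.8, 24.2, 91.5 and 92.0 CPM in T4 and 6.01, 5.04, 20.8 and 21.7 CPM in T5 (2.13, SE 0.08, adjusted p = 2.00e-06), with no overlap. *dpr15* had 2.55, 1.36, 17.8 and 21.0 CPM in T4 and 0, 0, 4.33 and 3.92 CPM in T5 (2.56, SE 0.31, adjusted p = 0.00075), so that its level came from 72 h APF. *dpr13* was the member higher in T5, with 8.33, 4.98, 21.5 and 8.66 CPM in T4 and 31.1, 32.1, 19.1 and 16.8 CPM in T5 (-1.39, SE 0.34, adjusted p = 0.0248). It had the reverse order in 72 h APF replicate 1, and without 60 h APF replicate 1 or 2 its adjusted p was 0.111 or 0.0760.

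Of 6 *DIP* genes tested 2 were higher in T4 and 2 in T5 (median 0.33). *DIP-theta* (2L, 5626291 to 5658560) had 4.90, 3.92, 1.52 and 2.85 CPM in T4 and 75.3, 79.4, 22.5 and 15.7 CPM in T5, a log2 difference of -3.63 (SE 0.26, adjusted p = 4.51e-05 by edgeR's quasi-likelihood test). *DIP-eta*, which lies beside it on the same strand of 2L (5601723 to 5617946), went the other way, with 20.3, 25.4, 86.5 and 14.0 CPM in T4 and 7.67, 5.98, 18.2 and 4.70 CPM in T5 (1.81, SE 0.15, adjusted p = 9.08e-05). *DIP-gamma* had 2.45, 2.42, 33.3 and 29.5 CPM in T4 and 0.207, 0.315, 0.867 and 2.55 CPM in T5 (3.72, SE 0.25, adjusted p = 3.13e-05). *DIP-theta* did not overlap between the types, *DIP-eta* overlapped through 72 h APF replicate 1 of T5, and *DIP-gamma* through 72 h APF replicate 2 of T5. *DIP-eta* was no longer called with subtype pairs fitted apart, at 1.42 (SE 0.61) and an adjusted p of 0.128.

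Beaten path and Sidestep proteins are another family of immunoglobulin-domain ligands and receptors, named for their part in motor axon guidance. Of 20 genes tested, 6 (30%) were higher in T4 and 2 (10%) in T5, against 3.78 and 1.42% of all genes (median 0.16). By the p-value alone 8 were higher in each type. *side* (3R, 27375088 to 27437482) encodes the founding Sidestep protein and had 2138, 1837, 198 and 229.8 CPM in T4 and 126, 113, 26.9 and 32.7 CPM in T5 (3.65, SE 0.22, adjusted p = 2.01e-05 by edgeR's quasi-likelihood test). Every T4 value of *side* exceeded every T5 value although the T4 level at 72 h APF was far below that at 60 h. *side-III* had 672, 703, 709.7 and 506 CPM in T4 and 242, 274, 361 and 265 CPM in T5 (1.21, SE 0.09, adjusted p = 6.92e-05). *side-II* had 382, 355, 309 and 464 CPM in T4 and 868, 898, 634 and 925 CPM in T5 (-1.12, SE 0.06, adjusted p = 1.11e-05), and *side-IV* had 109, 99.0, 46.9 and 63.2 CPM in T4 and 246, 235, 118 and 150.0 CPM in T5 (-1.22, SE 0.05, adjusted p = 3.67e-06). None of these overlapped between the types. *side-II* and *side-IV* also differ between subtypes, and with the pairs fitted apart they were at -0.98 and -0.64, under 2-fold. *beat-IIIc* (15.5 ± 9.35 CPM in T4 and 2.23 ± 2.43 CPM in T5) and *beat-Ia* (15.6 ± 8.11 and 3.53 ± 2.50 CPM) were low. They had a UMI in 0.969 and 0.677% of T4 cells and 0.636 and 1.09% of T5 cells as counted, so that their calls came from few cells. Both T4 shares lay below the *TfAP-2* range used above as a guide to background, and for *beat-Ia* the share was higher in T5. Both genes stay in the count of 6 higher in T4. *beat-IIIc* was not called without 72 h APF replicate 1 (adjusted p = 0.0526), and *beat-Ia* was not called without the 5% of cells with most UMIs (adjusted p = 0.135).

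Of 42 genes in a broader list of immunoglobulin adhesion proteins, *bdl* and *side-III* were higher in T4 and *hbs* and *kek3* in T5 (4.76% each, near the share of all genes for T4, median -0.04), and by the p-value alone 8 were higher in T4 and 14 in T5. *hbs*, a Nephrin-like protein, had 151, 161, 62.6 and 51.2 CPM in T4 and 299, 317, 204 and 141 CPM in T5 (-1.22, SE 0.12, adjusted p = 0.000227 by edgeR's quasi-likelihood test). *kek3*, a Kekkon protein with leucine-rich repeats, had 13.7, 20.5, 92.6 and 30.7 CPM in T4 and 30.7, 37.5, 263 and 60.3 CPM in T5 (-1.13, SE 0.11, adjusted p = 0.000216). Both were higher in T5 within each library, with overlap across stages. Of 11 leucine-rich repeat and Toll receptor genes only *trn* was called, at 1.47, 2.87, 48.0 and 10.6 CPM in T4 and 2.07, 0, 19.9 and 3.72 CPM in T5 (1.27, SE 0.34, adjusted p = 0.0353), and it was lost without either 72 h library (adjusted p = 0.169 without replicate 1 and 0.122 without replicate 2). Of 22 cadherins, teneurins, neurexins and receptor phosphatases 2 were higher in each type (median -0.14), and 4 in T4 and 7 in T5 by the p-value alone. *Ten-m*, a teneurin, had 339.8, 365, 235 and 247 CPM in T4 and 187, 181, 110.1 and 114 CPM in T5 (1.03, SE 0.06, adjusted p = 1.15e-05), without overlap. *Cad87A*, a cadherin, had 57.4, 74.7, 80.9 and 28.3 CPM in T4 and 114, 141, 258 and 85.0 CPM in T5 (-1.26, SE 0.13, adjusted p = 0.000348). *Ptp10D*, a receptor tyrosine phosphatase, had 513, 574, 822 and 333 CPM in T4 and 989.9, 1114, 1772 and 698 CPM in T5 (-1.001, SE 0.04, adjusted p = 4.34e-06), so even a difference that lies at the 2-fold limit was far larger than its SE.

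Guidance ligands and receptors had 3 of 40 tested genes called, all higher in T4 (7.5%, against 3.78% of all genes, median -0.12). By the p-value alone 7 were higher in T4 and 11 in T5, so the balance was the opposite without the 2-fold limit. *Drl-2*, a Ryk-type Wnt receptor, had 527, 549, 411 and 254 CPM in T4 and 192, 226, 143 and 89.9 CPM in T5 (1.45, SE 0.05, adjusted p = 2.00e-06 by edgeR's quasi-likelihood test). *unc-5*, a Netrin receptor, had 129, 104.01, 77.4 and 86.6 CPM in T4 and 54.9, 49.1, 24.3 and 19.2 CPM in T5 (1.51, SE 0.16, adjusted p = 0.0004). *Pvf3*, a ligand of the PDGF- and VEGF-related receptor, had 1100.4, 1128, 3991 and 3851 CPM in T4 and 795, 844, 1283 and 1359.7 CPM in T5 (1.02, SE 0.21, adjusted p = 0.00981). *Drl-2* and *unc-5* did not overlap between the types. The 72 h T5 values of *Pvf3* lay above the 60 h T4 values, and its call was lost without 72 h APF replicate 1 (0.83) or 2 (0.87).

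Among 65 transcription factors tested, 7 (10.8%) were higher in T4 and 1 (1.54%) in T5, against 3.78 and 1.42% of all genes (median 0.11). *CrebA*, known for driving genes of the secretory pathway, had 12.6, 18.6, 16.5 and 12.1 CPM in T4 and 0.622, 0.630, 0.867 and 0.392 CPM in T5 (4.62, SE 0.23, adjusted p = 7.16e-06 by edgeR's quasi-likelihood test). The zinc-finger factors *br*, *mamo* and *ab* were more abundant. *br*, which responds to ecdysone, had 74.3, 74.0, 41.1 and 57.3 CPM in T4 and 10.4, 10.4, 18.2 and 26.6 CPM in T5 (1.99, SE 0.29, adjusted p = 0.00195), *mamo* had 282, 296, 122 and 111 CPM in T4 and 47.3, 55.7, 30.3 and 63.8 CPM in T5 (1.94, SE 0.27, adjusted p = 0.00161), and *ab* had 216, 215, 288 and 408 CPM in T4 and 102, 101, 134 and 216 CPM in T5 (1.06, SE 0.05, adjusted p = 6.06e-06). *CrebA*, *br* and *mamo* did not overlap between the types, and for *ab* the highest T5 value reached the lower T4 values. *ab* is also a subtype gene, and with the pairs fitted apart it was at 0.95. The clock genes *per* and *tim* were higher in T4 at low levels, with 11.95, 14.04, 16.3 and 9.17 CPM in T4 and 4.98, 5.35, 6.07 and 3.52 CPM in T5 for *per* (1.37, SE 0.14, adjusted p = 0.000311) and averages of 8.63 CPM in T4 and 3.64 CPM in T5 for *tim*. *ap* was higher in T4 and *Ets65A* in T5, both under 4 CPM. The subtype factors *dac* and *bi* had differences of 0.34 and 0.42 (adjusted p = 0.280 and 0.0852).

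Lists of general function held few calls. Of 40 genes of the presynaptic release machinery, *Fife*, an active-zone protein, and *Rab27* were higher in T4 (median -0.01), *Fife* with 162, 129, 98.5 and 162 CPM in T4 and 56.8, 42.8, 41.6 and 91.6 CPM in T5 (1.29, SE 0.13, adjusted p = 0.000231 by edgeR's quasi-likelihood test). Of 50 cytoskeletal genes only *Act5C*, a cytoplasmic actin, was called, with 74.8, 58.7, 34.8 and 40.4 CPM in T4 and 174, 132, 62.4 and 89.3 CPM in T5 (-1.11, SE 0.07, adjusted p = 1.82e-05), higher in T5 in each library. None of 84 cytoplasmic ribosomal protein genes (median 0.03), 70 nuclear genes of oxidative phosphorylation (-0.09), 3 innexins (-0.40), 11 genes of sex and dosage compensation (0.04), 5 glial genes (0.16) or 6 photoreceptor genes (0.18) was called. *shakB*, an innexin of electrical synapses named here after its values were seen, had 3158, 3141, 1462 and 1491 CPM in T4 and 4018, 4217, 2421 and 2427 CPM in T5 (-0.53, SE 0.07), which passed the p-value (0.000926) but not the 2-fold limit. In the lists of stress genes, ecdysone response and activity-regulated genes 2 of 26, 1 of 19 and 1 of 18 genes were higher in T4, and none was higher in T5, which is near the 3.78 and 1.42% of all genes. By the p-value alone these lists went both ways, with 4, 1 and 5 genes higher in T4 and 5, 4 and 3 higher in T5. *TotA* and *Thor*, the 2 stress genes, averaged under 5 CPM. Genes of chromosome 4 (78 tested) and of the mitochondrial genome (15 tested) held no call.

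**Figure D3:**
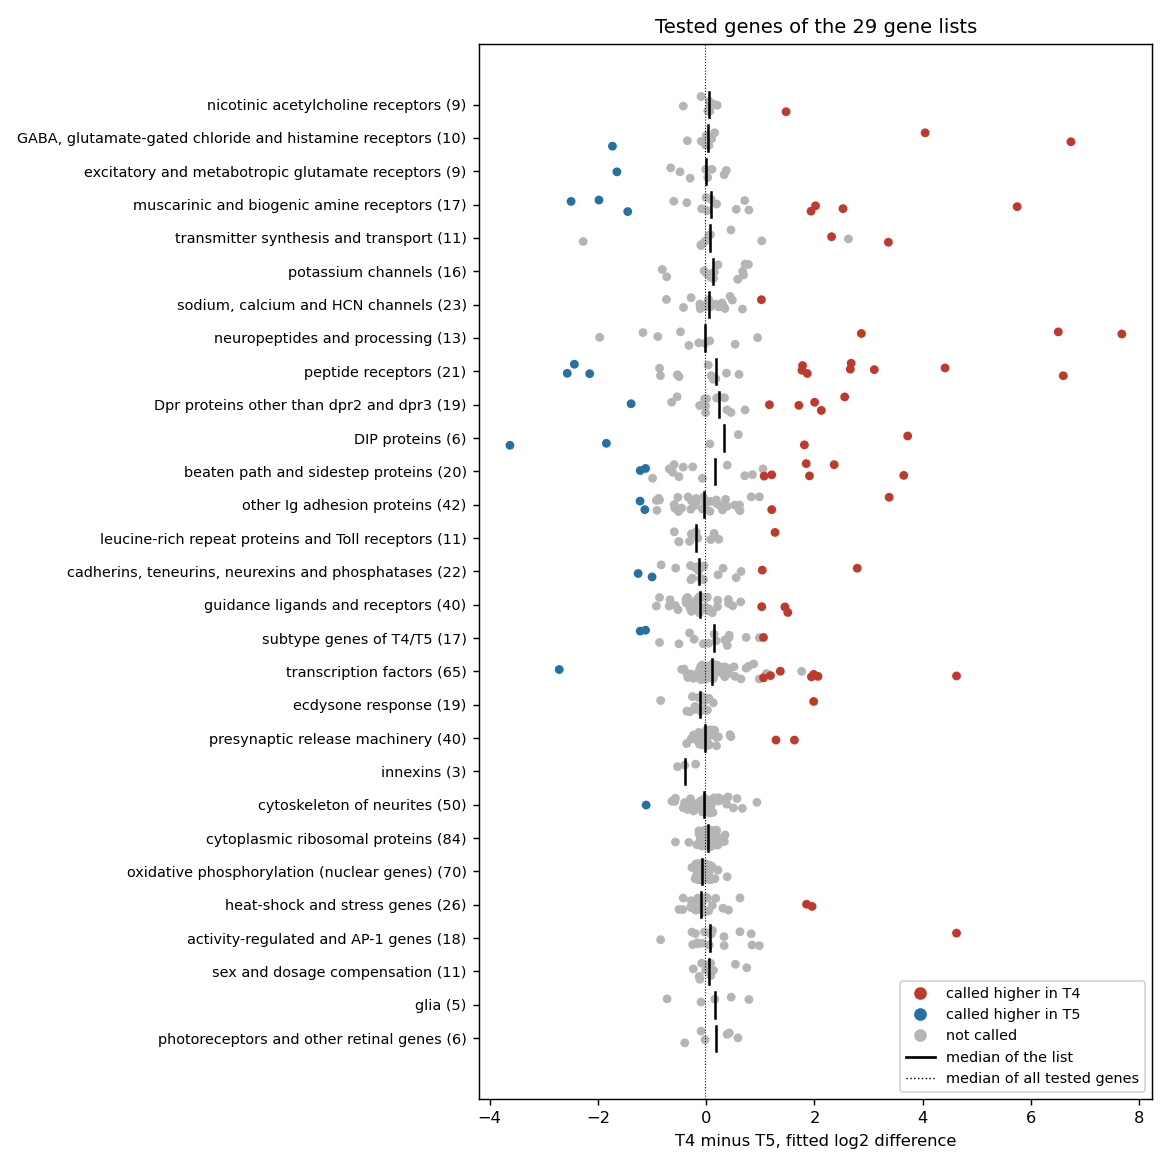
Fitted log2 difference (T4 minus T5) of every tested gene of the 29 lists, 1 row of points per list, with a bar at the median of the list and a dotted line at the median of all tested genes (-0.02). Red points were higher in T4 and blue points higher in T5, and grey points were not called. Points beyond 2 on either side are found in the lists of receptors, transmitter synthesis, peptides, cell-surface proteins and transcription factors, among others, while ribosomal and respiratory genes stay near 0.

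Whether the types differed alike at both stages was tested by a type by stage term. At 72 h compared with 60 h APF, 199 genes (2.94% of 6765) had a difference shifted towards T4 and 290 (4.29%) a difference shifted towards T5, at an adjusted p under 0.05, and 134 of these 489 shifted by at least 2-fold. Of these genes, 54 were higher in T5 in both 60 h libraries and higher in T4 in both 72 h libraries, and 87 had the opposite order. Of the 489, 64 were among the genes called higher in T4 over both stages and 22 among those higher in T5, so 403 were in neither set. These counts depended on the libraries and cells used. Without 60 h APF replicate 1 they were 108 towards T4 and 192 towards T5. With the subtype pairs fitted apart, an alternative added after seeing the data, 57 genes shifted towards T4 and 105 towards T5, of which 56 and 103 were among the 199 and 290. As given above, the share of a,b-like cells differed between the types at 60 h and was close at 72 h APF. The share of c,d-like cells was higher in T5 at both stages. The part of subtype shares in the stage counts was not tested. It cannot be read from this fit, which also loses genes whose type difference is unlike in the pairs.

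*dpr1* (2R, 20698483 to 20750442) had 755, 749, 1039 and 1202 CPM in T4 and 1474, 1389, 289 and 417 CPM in T5, so that T5 was higher at 60 h and T4 at 72 h APF. Its difference shifted by 2.55 on the log2 scale (SE 0.06, adjusted p = 8.90e-16 by edgeR's quasi-likelihood test) and by 2.70 with the pairs fitted apart. *Slob*, a protein that binds the Slowpoke potassium channel, did the opposite. It had 438, 399, 388 and 443 CPM in T4 and 109.9, 117, 532 and 634 CPM in T5 (shift -2.40, SE 0.07, adjusted p = 1.20e-14), nearly level in T4 and several times higher in T5 at 72 h than at 60 h APF. *bma* had 97.8, 99.5, 213 and 373 CPM in T4 and 35.9, 38.1, 389 and 665 CPM in T5 (shift -2.26, SE 0.09, adjusted p = 9.72e-13). *Ac13E*, an adenylyl cyclase, had 118, 102, 92.4 and 137 CPM in T4 and 91.8, 90.1, 10.4 and 13.5 CPM in T5 (shift 3.02, SE 0.14, adjusted p = 1.73e-11), so that it was close between the types at 60 h and remained in T4 at 72 h APF. *Ggamma30A*, a G protein gamma subunit known from phototransduction, was far more abundant, with 3326, 3305, 6178 and 5363 CPM in T4 and 6091, 6104, 6150.3 and 5262 CPM in T5 (shift 0.89, SE 0.03, adjusted p = 9.72e-13). T5 had reached its level at 60 h and T4 was at a like level at 72 h APF.

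*CG1688* was several times more abundant at 72 h than at 60 h APF in both types, with 33.3, 32.6, 1001 and 799 CPM in T4 and 103.7, 115.3, 1035 and 849 CPM in T5, and was close between the types at 72 h only (shift 1.64, SE 0.08, adjusted p = 4.57e-11 by edgeR's quasi-likelihood test). *CG42541* had 40.4, 37.4, 82.2 and 99.5 CPM in T4 and 185, 175, 75.4 and 97.5 CPM in T5 (shift 2.26, SE 0.10, adjusted p = 2.08e-12). *CG11191* (2R, 8000490 to 8002120), the neighbour of *Hey*, had 79.2, 72.8, 191 and 351 CPM in T4 and 2.49, 2.83, 90.1 and 172 CPM in T5 (shift -3.82, SE 0.20, adjusted p = 4.67e-11). T4 was higher at both stages and the ratio of T4 to T5 was smaller at 72 h APF. *CG42540* had 4051, 4120.0, 3337 and 3337 CPM in T4 and 3166, 3318, 4098 and 4193 CPM in T5 (shift -0.65, SE 0.04, adjusted p = 1.75e-10), a small shift in which the order of the types was opposite at the stages. *TrissinR*, the receptor of the peptide trissin, had 174, 187, 109 and 122 CPM in T4 and 80.9, 74.3, 148 and 185 CPM in T5 (shift -1.77, SE 0.09). *CG34377* had 553, 541, 203 and 279 CPM in T4 and 423, 437, 311 and 515 CPM in T5 (shift -1.16, SE 0.07), and *Pvf3*, with the values given above, shifted by 1.11 (SE 0.05). With the pairs fitted apart the shifts of *TrissinR* (-1.62, adjusted p = 0.386), *CG34377* (-0.37, adjusted p = 0.846) and *Pvf3* (1.003, adjusted p = 0.479) did not pass the test, whereas those of the other 9 named genes did. For *Pvf3* the shift stayed close to that of the whole types while its SE was 0.47. Its type difference was unlike in the pairs (pair difference 1.69, adjusted p = 0.0081), so the lost call does not show that the shift came from subtype shares.

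Of 19 genes of the Dpr list, 12 passed the p-value of the stage test, 5 towards T4 and 7 towards T5, against 2.94 and 4.29% of all genes. With the pairs fitted apart 6 of the 12 passed, *dpr1*, *dpr4*, *dpr6*, *dpr12*, *dpr17* and *dpr18*. In the fit of whole types, for *dpr1*, *dpr8*, *dpr9*, *dpr11* and *dpr13* the shift was towards T4, and for *dpr4*, *dpr6*, *dpr12*, *dpr14*, *dpr16*, *dpr17* and *dpr18* towards T5. *dpr6*, named here after its values were seen, had 296, 282, 386 and 391 CPM in T4 and 85.2, 92.9, 282 and 229 CPM in T5 (shift -1.03, adjusted p = 3.38e-07 by edgeR's quasi-likelihood test), so that T4 remained higher while the gap narrowed. *dpr18* had 146, 123, 57.4 and 82.7 CPM in T4 and 70.9, 61.1, 76.3 and 109 CPM in T5 (shift -1.43, adjusted p = 3.16e-09), and *dpr12* had 459, 459.8, 339 and 418 CPM in T4 and 211, 218, 257 and 369 CPM in T5 (shift -0.86, adjusted p = 3.00e-08). For *dpr18* the order of the types changed between the stages and for *dpr12* it did not. Other lists also exceeded the shares of all genes in the stage test. Towards T4 and T5, 3 and 6 of 17 amine and muscarinic receptors passed, and 2 and 8 of 21 peptide receptors. So did 1 and 8 of 23 cation channel genes, 2 and 17 of 65 transcription factors and 13 and 0 of 70 oxidative phosphorylation genes. With the pairs fitted apart these counts were 1 and 0, 1 and 2, 0 and 5, 2 and 3, and 2 and 0. Of the genes called over both stages, *side* (shift -1.23, adjusted p = 2.19e-07), *CG6006* (-3.41, adjusted p = 0.000134), *CG15537* (-2.36, adjusted p = 3.58e-05) and *br* (-1.72, adjusted p = 2.32e-06) had a smaller log2 difference at 72 h APF. The shift of *CG31760* (1.42, adjusted p = 2.56e-05) was likewise to a smaller difference, since it was higher in T5. With the pairs fitted apart the shifts of *side* (-1.32, SE 0.51, adjusted p = 0.313) and *br* (-1.60, SE 0.45, adjusted p = 0.0997) were of like size but did not pass. Those of *CG6006*, *CG15537* and *CG31760* did.

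**Figure D4:**
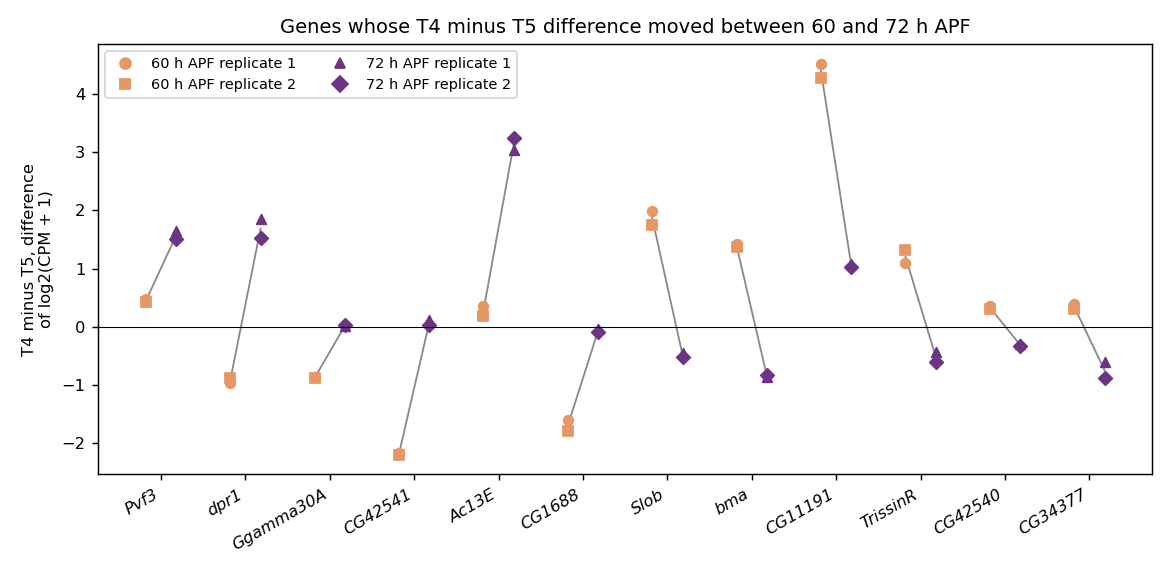
Difference of log2(CPM + 1) between T4 and T5 in each library for the 12 genes named from the stage test, with the 60 h APF libraries in orange and the 72 h APF libraries in purple. Libraries of 1 stage lie close together and the stages apart, and several genes, among them *dpr1*, *Slob* and *bma*, cross 0 between the stages.

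The differences of 60 and 72 h APF were set against those of the 6 libraries of 24, 36 and 48 h APF, in which the same gate took 17886 T4 and 4502 T5 cells. Of 7317 genes tested, 95 (1.3%) had a difference shifted towards T4 at 60 to 72 h compared with 24 to 48 h APF and 53 (0.724%) a difference shifted towards T5, each by at least 2-fold. Of these, 63 of the 95 and 24 of the 53 were called in that direction at 60 and 72 h, and 3 of the 53, *dpr16* among them, were called higher in T4. Several of these genes had low late values in T5 and not in T4. *smal*, a receptor of the discoidin domain family, averaged 64.3, 52.0, 23.0, 62.3 and 49.0 CPM in T4 over the stages of 24, 36, 48, 60 and 72 h APF, against 79.3, 69.1, 28.5, 6.26 and 6.96 CPM in T5 (shift 3.38, SE 0.21, adjusted p = 3.98e-06 by edgeR's quasi-likelihood test). *Sf3b6*, a subunit of the spliceosome, averaged 1484, 572, 566, 733 and 458 CPM in T4 and 1258, 736, 407, 122 and 91.4 CPM in T5 (shift 2.38, SE 0.18, adjusted p = 1.71e-05). At 60 and 72 h its difference of 2.49 (SE 0.07, adjusted p = 5.72e-07) had no overlap, with 391.7 CPM in the lowest T4 library and 126 CPM in the highest T5 library. *CG9331* averaged 104.2, 26.7, 8.96, 71.1 and 121 CPM in T4 and 96.0, 30.3, 4.04, 3.75 and 8.75 CPM in T5 (shift 3.78, SE 0.28, adjusted p = 1.11e-05), so it came back in T4 only. *CG13579* averaged 120.2, 426, 205, 76.5 and 89.6 CPM in T4 and 108, 378, 239.6, 19.4 and 14.7 CPM in T5 (shift 2.23, SE 0.15, adjusted p = 6.76e-06), and *Ten-m* and *CG4341* shifted by 1.11 each. *CG13579* overlaps other genes on its strand.

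In the other direction, *Nlg3*, a neuroligin, averaged 479.6, 424, 199.6, 573 and 365 CPM in T4 and 278, 218, 124, 1027 and 659 CPM in T5 at 24, 36, 48, 60 and 72 h APF (shift -1.66, SE 0.10, adjusted p = 3.98e-06 by edgeR's quasi-likelihood test). T4 was above T5 at the early stages and T5 above T4 at the late ones. *CG8916*, a relative of GABA-A receptor subunits, averaged 4.35, 9.65, 32.2, 92.8 and 189.7 CPM in T4 and 1.39, 2.44, 10.2, 92.2 and 220.0 CPM in T5 (shift -1.79, SE 0.11, adjusted p = 3.98e-06), and its difference at 60 and 72 h was -0.09 (adjusted p = 0.368), so T5 reached the level of T4. *Rh7*, a rhodopsin, averaged 40.3, 52.5, 33.1, 35.2 and 27.4 CPM in T4 and 11.8, 18.7, 9.97, 38.9 and 43.3 CPM in T5 (shift -1.92, SE 0.21, adjusted p = 0.000258). *sick* (shift -1.73, SE 0.13), *CG10384* (-1.32, SE 0.14) and *Act5C* (-1.07, SE 0.12) completed the 6 genes named in this direction. *Act5C* was low in both types at the late stages, with 37.6 CPM in T4 and 75.8 CPM in T5 at 72 h APF, against 3014 CPM in T4 and 2676 CPM in T5 at 24 h. For *Grd* the shift had an SE of 15.3 and could not be resolved, since the gene was almost undetected in either type before 60 h APF, at 0.119 CPM in T4 and 0 in T5 at 48 h and 101 CPM in T4 and 1.20 CPM in T5 at 60 h.

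Whether the types differed alike in a,b-like and c,d-like cells was tested by a type by pair term over 6267 genes. Both pairs of a library were separate blocks in this test, although only 4 libraries stand behind them. Its p-values are therefore approximate. T4 minus T5 was higher in a,b-like than in c,d-like cells for 34 genes (0.543%) and lower for 30 genes (0.479%), each by at least 2-fold, and 44 of these 64 were not called over all cells. Without 60 h APF replicate 1 they were 15 and 20 genes, without 60 h APF replicate 2 they were 14 and 16, without 72 h APF replicate 1 they were 22 each, and without 72 h APF replicate 2 they were 38 and 29. *DIP-eta* had 60.5 ± 54.6 CPM in a,b-like T4, 3.72 ± 4.63 CPM in a,b-like T5, 5.71 ± 2.86 CPM in c,d-like T4 and 13.1 ± 9.02 CPM in c,d-like T5 (SD, n = 4 libraries), a pair difference of 5.27 on the log2 scale (SE 0.49, adjusted p = 0.000117 by edgeR's quasi-likelihood test). *DIP-theta* was found mainly in a,b-like T5, at 126 ± 88.9 CPM, against 3.86 ± 2.35 CPM in a,b-like T4, 1.99 ± 0.654 CPM in c,d-like T4 and 0.783 ± 0.587 CPM in c,d-like T5 (-5.81, SE 0.91, adjusted p = 0.00415). These neighbouring genes thus marked different types within the a,b-like cells. *GABA-B-R3* was a gene of a,b-like T4, with 82.5 ± 38.1 CPM there, 1.56 ± 0.958 CPM in a,b-like T5, 7.64 ± 6.98 CPM in c,d-like T4 and 2.16 ± 1.91 CPM in c,d-like T5 (3.75, SE 0.60, adjusted p = 0.00462).

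*AstA* was instead a gene of c,d-like T4, with 133 ± 111 CPM there, 1.56 ± 1.97 CPM in a,b-like T4, 0.859 ± 0.743 CPM in a,b-like T5 and 0.315 ± 0.391 CPM in c,d-like T5 (pair difference -7.11, SE 1.42, adjusted p = 0.0256 by edgeR's quasi-likelihood test). *Dop2R* had 17.8 ± 17.0 CPM in a,b-like T4, 6.84 ± 12.6 CPM in a,b-like T5, 55.6 ± 14.7 CPM in c,d-like T4 and 2.45 ± 1.74 CPM in c,d-like T5 (-3.46, SE 0.59, adjusted p = 0.00693). *AstA* and the dopamine receptor *Dop2R*, which are not a peptide and its receptor, were thus both highest in c,d-like T4. The dopamine receptor *Dop1R2*, with 95.0 ± 22.6 CPM in a,b-like T4 and 6.61 ± 2.90 CPM in c,d-like T4, was highest in the other pair, although its own pair difference did not pass the test (adjusted p = 0.115). Other genes, named here after their values were seen, were also uneven between the pairs of T4. *ple* had 4.67 ± 3.34 CPM in a,b-like and 93.4 ± 67.1 CPM in c,d-like T4. In the same order *ana* had 188 ± 66.2 and 17.1 ± 11.9 CPM. *mamo* had 330 ± 181 and 62.8 ± 25.6 CPM, and *dpr5* had 86.7 ± 54.9 and 15.8 ± 13.9 CPM. Their pair differences did not pass the same test either (adjusted p of 0.476 or more). *rdgA*, a diacylglycerol kinase, was highest in a,b-like T5, with 89.2 ± 55.8 CPM, against 23.9 ± 17.5 CPM in a,b-like T4, 10.7 ± 8.33 CPM in c,d-like T4 and 4.82 ± 7.41 CPM in c,d-like T5 (-2.81, SE 0.31, adjusted p = 0.000292). The *rdgA* call was lost with *TfAP-2* alone as gate of T4 (-1.58, adjusted p = 0.0572) and after thinning (-2.48, adjusted p = 0.118). *CG32333* was highest in c,d-like T4, with 143 ± 38.7 CPM, and had 31.9 ± 8.97 CPM in a,b-like T4, 47.6 ± 7.76 CPM in a,b-like T5 and 36.5 ± 6.79 CPM in c,d-like T5 (-2.65, SE 0.29, adjusted p = 0.000292). *dpr16* was low only in a,b-like T5, at 9.70 ± 2.37 CPM, against 107 ± 77.1 CPM in a,b-like T4, 352 ± 244 CPM in c,d-like T4 and 96.3 ± 52.0 CPM in c,d-like T5 (1.87, SE 0.30, adjusted p = 0.0046).

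*Oatp26F*, an organic anion transporter, was not called overall (69.2 ± 73.5 CPM in T4 and 69.7 ± 80.1 CPM in T5, adjusted p = 0.726 by edgeR's quasi-likelihood test) and had 120.1 ± 127 CPM in a,b-like T4, 109 ± 125 CPM in a,b-like T5, 6.71 ± 6.73 CPM in c,d-like T4 and 45.1 ± 52.2 CPM in c,d-like T5 (2.88, SE 0.37, adjusted p = 0.000856). DESeq2 gave it an adjusted p of 0.604. *kek1*, a Kekkon protein, was not called overall either (-0.02) and had 1193 ± 218 CPM in a,b-like T4, 1764 ± 571 CPM in a,b-like T5, 1011 ± 192 CPM in c,d-like T4 and 720.2 ± 98.0 CPM in c,d-like T5 (-1.02, SE 0.12, adjusted p = 0.000461), so that the order of the types was opposite in the pairs. *CG31475* (-2.54), *l(1)G0193* (-1.58) and *CG31637* (-1.48) were the other named genes with a pair difference below 0, that is, a lower T4 minus T5 in a,b-like than in c,d-like cells, and *CG2082* (1.26), *CG42402* (1.13), the octopamine receptor *Octalpha2R* (1.04) and the glypican *dally* (1.03) those above 0. *CG31475* was lowest in c,d-like T5, with 11.5 ± 17.3 CPM, against 96.7 ± 99.2 CPM in a,b-like T4, 83.8 ± 76.1 CPM in a,b-like T5 and 75.0 ± 116 CPM in c,d-like T4. *CG31637* was close between the types in a,b-like cells, at 276 ± 30.5 CPM in T4 and 284 ± 65.3 CPM in T5, and higher in T4 in c,d-like cells, at 172 ± 11.1 CPM in T4 and 64.4 ± 6.49 CPM in T5.

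**Figure D5:**
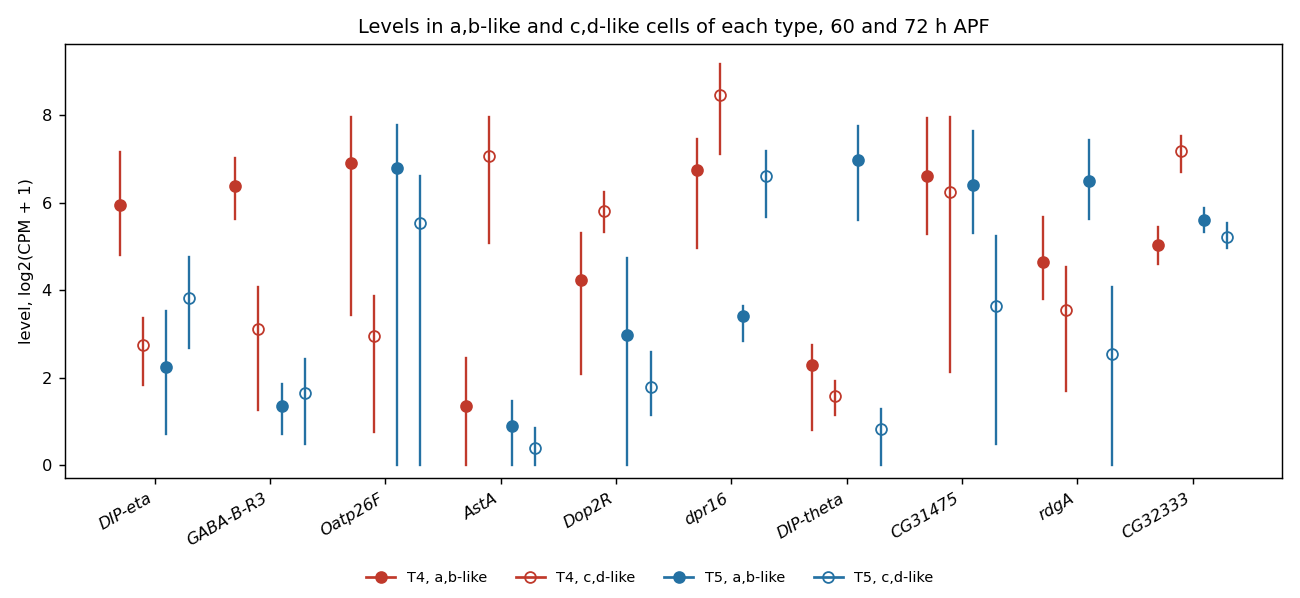
Levels of 10 genes with a pair-dependent difference, as log2 of the mean CPM + 1 over 4 libraries, with T4 in red and T5 in blue, a,b-like cells as filled and c,d-like cells as open symbols. Lines span the lowest and highest library. *AstA* stands out in c,d-like T4, *DIP-theta* in a,b-like T5 and *GABA-B-R3* in a,b-like T4.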

How the data were processed

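Single cells were captured on a droplet platform (10x Genomics, v3 chemistry). The authors aligned reads and counted UMIs with Cell Ranger (version 3, per the labels) against the *D. melanogaster* Ensembl genome to which sequences of transgenes had been added. What was deposited for each library is a matrix of unnormalised UMI counts for 17757 genes in the barcodes called as cells.

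Gated UMI counts were summed per type and library. With droplets of 2 cells not called or removed, 8 sums of 1153936 to 15811877 UMIs were tested with edgeR (version 4.0.16; TMM, filterByExpr, quasi-likelihood test, two-sided, Benjamini-Hochberg adjustment over all tested genes) in R (version 4.3.3), with library as block and type as term. Stage, period (20 sums) and subtype pair (16 sums, with *dac* and *bi* left out) were tested as interactions with type. DESeq2 (version 1.42.0), other scalings, filters, gates, thinning and leaving out libraries were alternatives. T4 and T5 of 1 library share its preparation, so the library pairs them. The 4 libraries are 2 biological replicates per stage. The p-values of the stage test rest on the spread between replicates of a stage. With so few libraries, edgeR's fit takes that spread partly from other genes. The smallest p-values therefore do not rest on the replicates of 1 gene alone. The main, period and pair tests pool stages, so their p-values also take in changes of the type difference between stages. Python (version 3.11.15), numpy (version 2.4.6), pandas (version 2.3.3), scipy (version 1.17.1) and matplotlib (version 3.10.9) were used for sums, ratios and plots, with a random seed of 20 for thinning. The fits were tested on simulated data.

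CPM are counts per 1000000 UMIs of the sum, without length correction, so levels are compared between types and not between genes. Positions come from the Ensembl annotation BDGP6.54, a later release than that used for counting. It matched 17626 of the 17757 gene IDs, without *hbs*. Whether counting used strand was not given in the sources used here for overlapping genes beyond those named. Named genes were the 4 gate genes, the 12 largest called differences in each direction with 1 direction in 4 libraries and at least 50 CPM in the higher type, up to 4 called members of each of 29 lists with at least 10 CPM, up to 6 genes per direction with the smallest p in each interaction test with at least 50 CPM in some group, and *CG14340* and *DIP-theta*. Members and lists were chosen with earlier results of these data known. Sequences were not used here.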

Additional observations from a re-analysis of the deposited data

Results flagged for a closer look

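For 3 of the 67 genes named in the main comparison, 1 library lay far from the other 3 in its log2 difference of CPM + 1 between T4 and T5. Chance alone marks about 1 in 20 groups, so this number is near what chance gives. In 60 h APF replicate 2 the difference was 4.29 for *CG9331* and 2.04 for *AstCC*, and in 72 h APF replicate 2 it was 0.92 for *ab*.

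The test of stage found that the difference between T4 and T5 was not alike at 72 h and 60 h APF for 12 named genes. It shifted towards T4 by 2.55 for *dpr1*, 0.89 for *Ggamma30A*, 2.26 for *CG42541*, 1.11 for *Pvf3*, 3.02 for *Ac13E* and 1.64 for *CG1688* on the log2 scale. For *Slob* the shift was -2.40, for *bma* -2.26, for *CG11191* -3.82, for *TrissinR* -1.77, for *CG42540* -0.65 and for *CG34377* -1.16.

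The test of period found shifts at 60 to 72 h compared with 24 to 48 h APF of 3.38 for *smal*, 2.23 for *CG13579*, 3.78 for *CG9331*, 2.38 for *Sf3b6*, 1.11 for *Ten-m* and 1.11 for *CG4341*. Towards T5 they were -1.66 for *Nlg3*, -1.79 for *CG8916*, -1.73 for *sick*, -1.32 for *CG10384*, -1.92 for *Rh7* and -1.07 for *Act5C*.

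The test of subtype pair found differences between a,b-like and c,d-like cells of 1.13 for *CG42402*, 5.27 for *DIP-eta*, 1.03 for *dally*, 1.04 for *Octalpha2R*, 2.88 for *Oatp26F* and 1.26 for *CG2082*. Those below 0, a lower T4 minus T5 in a,b-like than in c,d-like cells, were -2.54 for *CG31475*, -1.48 for *CG31637*, -2.81 for *rdgA*, -2.65 for *CG32333*, -1.02 for *kek1* and -1.58 for *l(1)G0193*.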

How the results depend on the processing

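No result changed direction under any alternative run. T4 and T5 sums come from the same library, so the replicate block was the library. Without the replicate block, 200 genes were higher in T4 and 54 in T5 (256 and 96 with it), the stage test called 3 towards T4 and 2 towards T5, the period test 47 and 25, and the pair test 8 and 7. Asking for at least 4-fold left 129 and 22 genes, and the p-value alone gave 767 and 560. Leaving out 1 library at a time gave 225 to 256 genes higher in T4 and 70 to 82 in T5, 108 to 225 and 192 to 410 in the stage test (where a lone library is assumed to vary like the others), 71 to 83 and 43 to 49 in the period test, and 14 to 38 and 16 to 29 in the pair test. In the stage test DESeq2 called 71 towards T4 and 132 towards T5, thinned cells gave 78 and 126, the stricter gate 131 towards T4, and subtype pairs fitted apart 57 and 105. In the pair test 63 and 60 genes were called without a filter on low counts and 15 towards T5 with thinned cells. Thinning took the median share of cells with a UMI for the 12 top genes higher in T4 to 7.86% of T4 (20.1% as counted) and 0.239% of T5 (0.769%), and for those higher in T5 to 3.41% of T4 (10.96%) and 13.7% of T5 (39.1%). Causes of these moves were not tested. The other alternatives kept each count within 1.5 times, which does not say that they called the same genes. Of the 256 and 96 genes called in the main comparison, 160 and 49 were called after thinning, 178 and 59 with the stricter gate and 209 and 73 with subtype pairs fitted apart. Of the 67 genes named from the main comparison, 11 were not called without the block. *Ptp10D*, *CG42817*, *Ten-m* and *kek3* lie so near 2-fold that some alternatives took them just under it. In the pair test *dally*, *Octalpha2R*, *kek1* and *CG42402* likewise fell under 2-fold in some alternatives. *rdgA* and *l(1)G0193* lost their pair calls after thinning and without the block. Fitting the pairs apart in the stage and period tests was chosen after seeing the data, and the period test then lost only *Act5C* (-0.997) of the named genes. Same-strand overlaps in the annotation, where reads may be shared, also touch *Shawl*, *DIP-theta*, *dpr1*, *Ac13E*, *Ten-m*, *Nlg3*, *dally*, *CG2082*, *CG31475*, *rdgA*, *beat-IIIc* and *osp*. A promoter motif search was not run. Depth limits genes under about 10 CPM, which rest on few UMIs in T5.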
